A study of Homo sapiens with 12 samples.

Results

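The messenger RNAs of 6 long coiled-coil tethering proteins were followed: GOLGA4 (ENSG00000144674), GCC2 (ENSG00000135968), GOLGB1 (ENSG00000173230), TRIP11 (ENSG00000100815) and GOLGA2 (ENSG00000167110), which work at the Golgi, and EEA1 (ENSG00000102189), which works at early endosomes. They were chosen by these Ensembl identifiers, and 6 of 6 were found among the 57820 gene identifiers of each library. All 6 passed the filter on low counts, along with 16920 genes in all in the 12-library fit and 16728 in the fit of the 6 input libraries.

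The libraries came from HEK293 Flp-In T-REx cells, an established human embryonic kidney line, with a stably integrated vector that overexpressed FLAG/HA-tagged RPL12. RPL12 (uL11) belongs to the large subunit of the ribosome, at the base of its stalk. The tagged form was S38A (serine changed to alanine, which cannot be phosphorylated), S38D (serine changed to aspartate, often used to mimic phosphorylation) or wild type (WT). RNA was taken from the 80S part of a sucrose gradient, which holds single ribosomes, either after anti-FLAG immunoprecipitation (IP) or from an aliquot of the same fraction with no antibody (input). The 6 groups were S38A IP, S38D IP, WT IP, S38A input, S38D input and WT input, with 2 libraries each. The cells were grown in DMEM with serum, and cycloheximide was present in the fractions of every group. All lines came from hygromycin-selected monoclonal colonies, so the form of RPL12 and the history of the line cannot be told apart. The labels do not say whether the cells still made RPL12 of their own. Nothing in the labels shows whether same-group libraries were grown separately, and the p-values therefore describe the spread between libraries, which may be technical. The files do not pair identifiers with gene names, so HEK293 markers, the tagged gene and other Golgi and endosome genes were not analysed here.

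Tethers catch a transport vesicle before it fuses with its target membrane. Golgins do this at the Golgi, with one end anchored to the membrane and a long coiled-coil rod reaching into the cytoplasm, and different golgins sit on different Golgi faces and catch different vesicles. EEA1 does the same on early endosomes. Because the rods are long, the coding sequences are long too.

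IP libraries held 3186164 to 7430881 gene counts, against 7434431 to 8723130 in input libraries. ERCC spike-in RNA, synthetic transcripts added to the samples, took 1.44% to 5.43% of counts in IP libraries and 0.116% to 0.484% in inputs. No IP from cells without tagged RPL12 was analysed here, so recovery through the tag and RNA carried along without it cannot be told apart. The first WT IP library stood apart in its tether values. It was the shallowest and had the highest spike-in share, but the second S38D IP library was close on both (3695441 gene counts, 5.18%). The 6 tether mRNAs summed to 651 CPM (counts scaled to a common library size) in the first WT IP library. The sums were 223 to 346 CPM in the other 5 IP libraries and 124 to 255 CPM in the 6 inputs. Results over the 3 lines and in WT are therefore given with and without the first WT IP library. CPM values were scaled by the trimmed mean of M values (TMM) and are not divided by transcript length, so levels are compared between libraries and not between genes.

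The first comparison asked whether the tether mRNAs were enriched or depleted in RNA recovered with tagged RPL12 relative to the 80S fraction it came from. Over the 3 lines, 4 of the 6 rose in IP: GOLGA4 by 2.92-fold, GOLGB1 by 2.17-fold, GCC2 by 2.04-fold and TRIP11 by 1.89-fold. GOLGA2 and EEA1 did not pass the test, and 0 of 6 fell. Among all genes tested, 15.9% were called higher in IP (edgeR quasi-likelihood test, Benjamini-Hochberg adjusted p under 0.05). TMM gave 2690 genes higher and 2688 lower, and with total counts in place of TMM the split was 1298 higher (7.67%) and 5251 lower, with the same 4 mRNAs called. The median log2 change of the 6 was 0.97, beside -0.04 for all genes tested.

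GOLGA4 (golgin-245, also p230) is a golgin of the trans-Golgi network, bound there through its C-terminal GRIP domain and the small GTPase ARL1. It stood at 90.8 and 122.8 CPM in S38A IP, 108.7 and 121.4 CPM in S38D IP and 204.5 and 67.6 CPM in WT IP. Inputs held 43.7 and 66.8 CPM in S38A, 42.2 and 43.8 CPM in S38D and 23.5 and 32.4 CPM in WT. Each IP value lay above every input value, although the lowest IP value, in WT, was close to the highest input value, in S38A. The log2 change over the 3 lines was 1.54 (SE 0.22, edgeR adjusted p = 0.00047). By size of increase it ranked 65 of 16920 genes. Without the first WT IP library it was 1.20 (SE 0.14, edgeR adjusted p = 0.00027). In the RefSeq table GOLGA4 overlaps its antisense gene GOLGA4-AS1 and the pseudogenes TCEA1P2 and RNA5SP129, and since the use of strand in counting was not stated, part of its count may belong to them.

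GCC2 (GCC185) is another GRIP-domain golgin of the trans-Golgi network, known for capture of vesicles that return from endosomes. It stood at 74.3 and 77.0 CPM in S38A IP, 73.9 and 77.3 CPM in S38D IP and 193.5 and 56.3 CPM in WT IP. Inputs held 47.0 and 56.4 CPM in S38A, 47.3 and 42.4 CPM in S38D and 33.1 and 38.3 CPM in WT. Within each line both IP values exceeded both inputs, and across lines the second WT IP library fell just short of the second S38A input. The share of all genes that separate within a line was not counted, here or for the mRNAs below. The log2 change was 1.03 (SE 0.22, edgeR adjusted p = 0.0038), and it was 0.64 without the first WT IP library (SE 0.09, edgeR adjusted p = 0.00068). GCC2 shares sequence with the RGPD gene family, and an antisense gene, GCC2-AS1, overlaps it, so part of its count may belong to these.

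GOLGB1 (giantin) is a golgin of the cis-Golgi and Golgi rims, held in the membrane by a C-terminal transmembrane segment. It stood at 24.9 and 31.3 CPM in S38A IP, 34.2 and 33.9 CPM in S38D IP and 76.4 and 29.5 CPM in WT IP. Inputs held 17.3 and 22.8 CPM in S38A, 17.3 and 14.6 CPM in S38D and 14.3 and 16.2 CPM in WT. As for GOLGA4, no input reached the lowest IP value. Such separation, with every IP above every input, was seen for 2 of the 6 mRNAs and for 6.15% of all genes tested. The log2 change of GOLGB1 was 1.12 (SE 0.20, edgeR adjusted p = 0.0013), and without the first WT IP library it was 0.84 (SE 0.13, edgeR adjusted p = 0.0010).

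TRIP11 (GMAP-210) is a cis-Golgi golgin that binds small, highly curved vesicles through its N terminus. It stood at 40.6 and 44.4 CPM in S38A IP, 39.9 and 47.1 CPM in S38D IP and 99.6 and 30.1 CPM in WT IP. Inputs held 27.6 and 36.9 CPM in S38A, 28.7 and 26.0 CPM in S38D and 17.8 and 21.8 CPM in WT. The IP values were the higher ones within every line, while the second WT IP library lay below the second S38A input. The log2 change was 0.92 (SE 0.22, edgeR adjusted p = 0.0080), and without the first WT IP library it was 0.55 (SE 0.12, edgeR adjusted p = 0.0062). TRIP11 overlaps the pseudogene PTMAP7.

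GOLGA2 (GM130) is the cis-Golgi golgin that works with the stacking protein GRASP65 and the tether p115. It stood at 20.5 and 42.4 CPM in S38A IP, 19.1 and 20.8 CPM in S38D IP and 32.3 and 19.3 CPM in WT IP. Inputs held 23.3 and 37.6 CPM in S38A, 20.6 and 24.8 CPM in S38D and 16.1 and 17.3 CPM in WT. IP and input values overlapped in S38A and S38D but not in WT, and the second S38A fraction was high on both sides. The log2 change was 0.16 (SE 0.20, 95% interval -0.28 to 0.59, edgeR adjusted p = 0.59). It was 0.01 without the first WT IP library and -0.06 with total counts in place of TMM. GOLGA2 has related copies in the genome (the GOLGA8 and GOLGA6 families and pseudogenes) and overlaps the gene SWI5, so its count is uncertain to that extent.

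EEA1 binds the GTPase RAB5 and, through a FYVE domain, the lipid phosphatidylinositol 3-phosphate, and it tethers early endosomes to each other. It stood at 28.9 and 28.2 CPM in S38A IP, 23.8 and 27.5 CPM in S38D IP and 44.5 and 19.7 CPM in WT IP. Inputs held 29.5 and 34.7 CPM in S38A, 29.3 and 28.1 CPM in S38D and 19.6 and 24.5 CPM in WT. Both IP values lay below both inputs in S38A and S38D, and in WT they lay on either side of the highest input. The log2 change over the 3 lines was 0.06 (SE 0.17, 95% interval -0.31 to 0.42, edgeR adjusted p = 0.82). Without the first WT IP library it was -0.17, and with total counts -0.16, and it passed in neither setting (edgeR adjusted p = 0.28 and 0.43). EEA1 overlaps the protein-coding gene PLEKHG7, an RNA gene and 2 pseudogenes, so its count, and the ratios to it below, carry the same doubt.

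**Figure D1:**
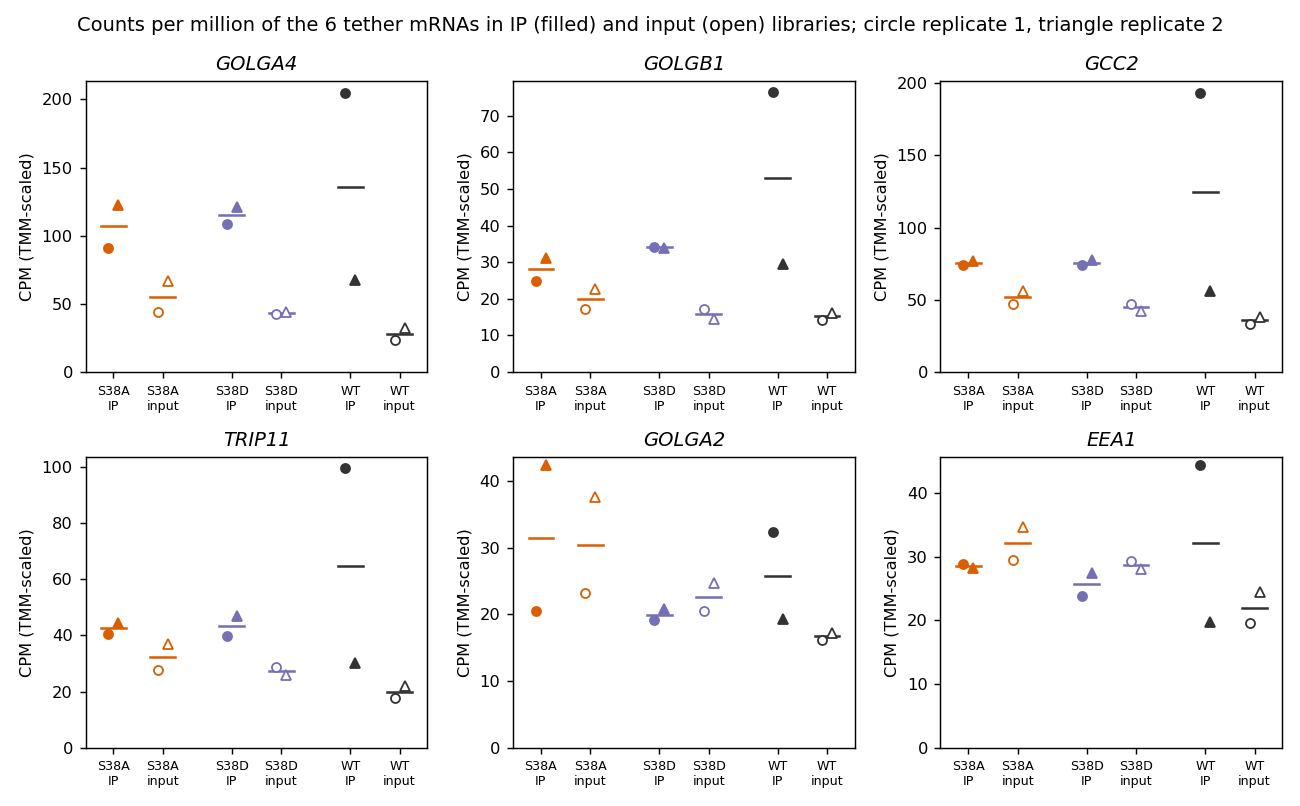
TMM-scaled CPM of each tether mRNA in every library, with IP (filled) left of input (open) for each line, circles for replicate 1, triangles for replicate 2 and bars for the mean of 2 libraries; each vertical axis starts at 0. The first WT IP library is the highest value for each mRNA except GOLGA2, and GOLGA4 and GOLGB1 are the ones in which every IP value lies above every input.

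Each IP library was set against the input of its line with the same replicate number, which was taken to be from the same fraction. On this paired scale GOLGA4, GOLGB1, GCC2 and TRIP11 were higher in IP in 6 of 6 fractions, as were 20.3% of all genes tested. GOLGA4 ranged from 0.88 to 3.10 in log2 IP over input, with a median of 1.20. GOLGB1 ranged from 0.45 to 2.4 with a median of 0.91, GCC2 from 0.45 to 2.53 with a median of 0.65, and TRIP11 from 0.27 to 2.47 with a median of 0.51. The highest value of each came from the first WT fraction, and the next highest came from the second S38D fraction. EEA1 was lower in IP in 5 of 6 fractions, from -0.31 to -0.03, and higher at 1.17 in the first WT fraction. GOLGA2 was higher in 3 of 6 and lower in 3 of 6, between -0.25 and 0.99.

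**Figure D2:**
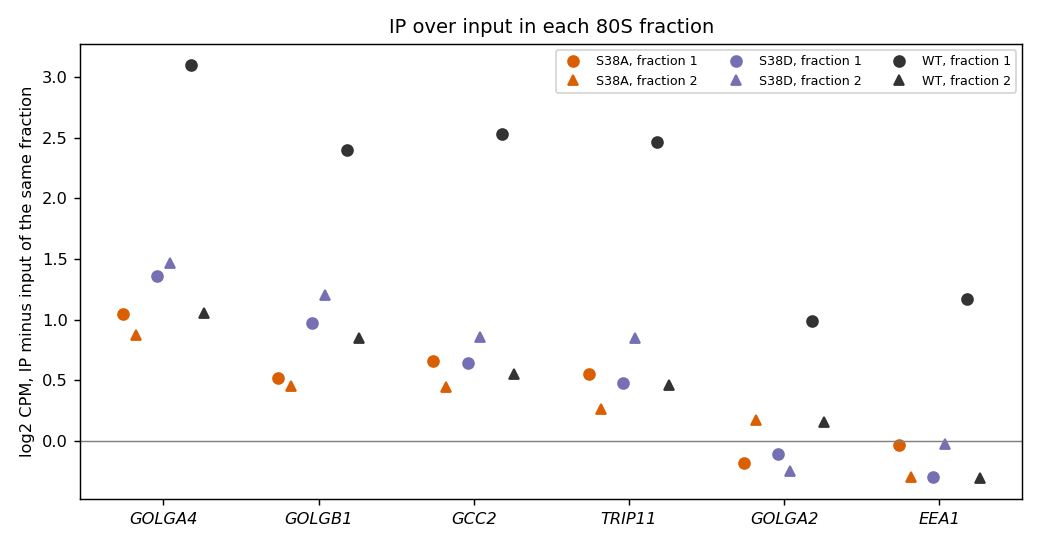
Log2 CPM of IP minus log2 CPM of the input of the same 80S fraction, for each tether mRNA, coloured by line, with circles for fraction 1, triangles for fraction 2 and a grey line at no difference. GOLGA4, GOLGB1, GCC2 and TRIP11 are above 0 in all 6 fractions, whereas EEA1 lies between -0.31 and -0.03 in 5 of them.

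Ratios of raw counts within a library do not depend on how libraries are scaled. EEA1 was taken as the denominator after its values had been seen, so these ratios are a description without a test. The count of GOLGA4 was 3.14 to 4.60 times that of EEA1 in the 6 IP libraries (median 4.39) and 1.20 to 1.93 times in the 6 inputs (median 1.46). GCC2 over EEA1 was 2.57 to 4.35 in IP and 1.51 to 1.69 in input. GOLGB1 over EEA1 was 0.863 to 1.72 in IP and 0.520 to 0.729 in input, and TRIP11 over EEA1 was 1.41 to 2.24 in IP and 0.893 to 1.06 in input. For these 4 mRNAs IP and input did not overlap, with every IP ratio above every input ratio. Of all genes set against EEA1 in this way, 0.952% separated in that direction. GOLGA2 over EEA1 was 0.709 to 1.50 in IP and 0.701 to 1.08 in input, with overlap. The first WT IP library was high on the CPM scale for EEA1 as well, and its GOLGA4 to EEA1 ratio of 4.60 was beside 4.56 and 4.41 in S38D IP. Its GCC2 ratio of 4.35, TRIP11 ratio of 2.24 and GOLGB1 ratio of 1.72 were, like that of GOLGA4, the highest of the 12 libraries.

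**Figure D3:**
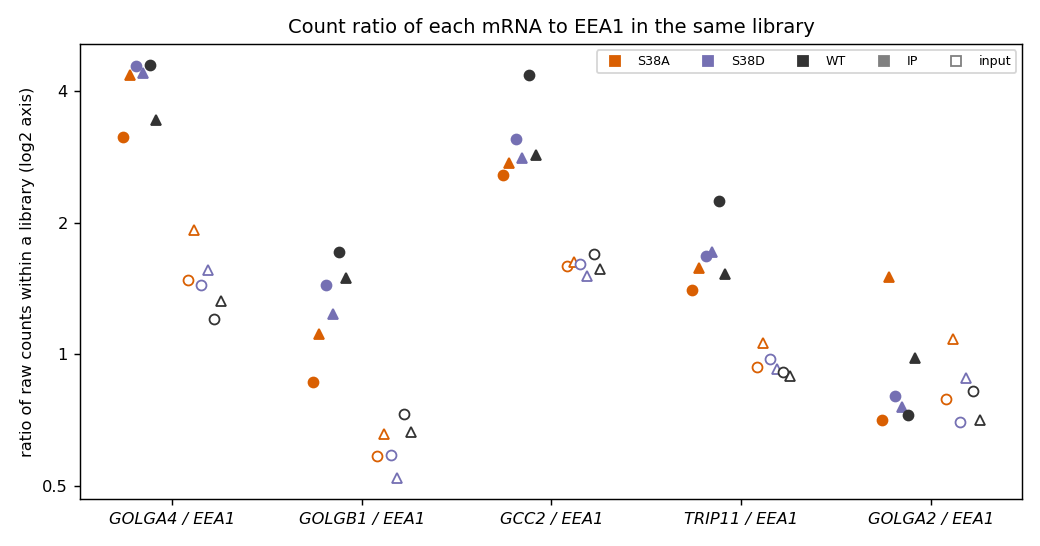
Raw count of each Golgi tether mRNA divided by the raw EEA1 count of the same library, on a log2 axis, with IP libraries (filled) left of inputs (open), coloured by line, circles for replicate 1 and triangles for replicate 2. The GOLGA4, GOLGB1, GCC2 and TRIP11 ratios separate IP from input without overlap, and the GOLGA2 ratios overlap.

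Taken line by line, GOLGA4 had the largest estimated increase of the 6 in each line. In S38A, 0 of 6 passed, as did 0% of all genes tested (edgeR), although 2575 genes had an unadjusted p under 0.05 and DESeq2 called 463 genes. GOLGA4 averaged 106.8 ± 22.6 CPM in S38A IP and 55.3 ± 16.3 CPM in S38A input (SD, n = 2 each). Its log2 change was 0.95 (SE 0.38, 95% interval 0.13 to 1.77, edgeR adjusted p = 0.27), and it was the only member of the 6 with an unadjusted p under 0.05. The other 5 lay between -0.17 for EEA1 and 0.55 for GCC2. DESeq2 also called 0 of 6. With the fraction as a replicate block 0 of 6 passed, where 2079 genes were called in all, 5.92% of those tested being higher, and GOLGA4 was at 0.96 (edgeR adjusted p = 0.075). The unfiltered fit called GOLGA4 (edgeR adjusted p = 0.0024), where 0.701% of genes were higher. A block fit without the first WT fraction called GOLGA4, GOLGB1, GCC2 and TRIP11, where 18.6% were higher.

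In S38D, 0 of 6 passed at adjusted p under 0.05, where 3.13% of all genes were called higher. GOLGA4 averaged 115.0 ± 9.0 CPM in S38D IP and 43.0 ± 1.1 CPM in S38D input (SD, n = 2 each), a log2 change of 1.42 (SE 0.39) that missed the threshold at edgeR adjusted p = 0.054. GOLGB1 averaged 34.1 ± 0.21 CPM in S38D IP and 15.9 ± 1.9 CPM in S38D input, a log2 change of 1.09 (SE 0.35, edgeR adjusted p = 0.086). These 2 were the members with an unadjusted p under 0.05, which 3736 of the 16920 genes tested had. With the fraction as a replicate block both passed, GOLGA4 at 1.42 (edgeR adjusted p = 0.015) and GOLGB1 at 1.10 (edgeR adjusted p = 0.025), and DESeq2 called both. The block called 10.7% of all genes higher, and DESeq2 called 10.2% of those with an adjusted p. GCC2 was at 0.75 and TRIP11 at 0.67. With the first WT IP library left out, which removes its spread from the shared estimate, GOLGA4, GOLGB1 and GCC2 passed in S38D (edgeR adjusted p = 0.0066, 0.013 and 0.014), and without the second WT IP library TRIP11 passed as well (edgeR adjusted p = 0.0499). These fits called 6.18% and 6.58% of all genes higher.

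In WT, 4 of 6 rose, where 5.77% of all genes were called higher. GOLGA4 averaged 136.0 ± 96.8 CPM in WT IP and 28.0 ± 6.3 CPM in WT input (SD, n = 2 each), and its log2 change was 2.26 (SE 0.40, edgeR adjusted p = 0.0084). GCC2 changed by 1.78 (SE 0.39, edgeR adjusted p = 0.016), GOLGB1 by 1.77 (SE 0.35, edgeR adjusted p = 0.012) and TRIP11 by 1.68 (SE 0.40, edgeR adjusted p = 0.021). The wide spread of the 2 WT IP libraries carried into these values. Without the first WT IP library, and with the remaining one taken to vary like the other groups, only GOLGA4 passed, at 1.30 (edgeR adjusted p = 0.042), and GOLGB1 was at 0.97, GCC2 at 0.68 and TRIP11 at 0.63, in a fit that called 1.32% of all genes higher. Without the second, 5 of 6 passed, EEA1 among them at 1.01 (edgeR adjusted p = 0.011), and 9.31% of all genes were called higher. With the first WT input left out 0 of 6 and 0.348% of all genes passed as higher, with GOLGA4 at 2.05 (edgeR adjusted p = 0.064). With the second left out 0 of 6 and 0 of all genes passed, with GOLGA4 at 2.51 (edgeR adjusted p = 0.083). In a fit of the 4 WT libraries alone 0 of 6 and 0 of all genes passed, while the estimates stayed at 2.30 for GOLGA4, 1.80 for GOLGB1, 1.82 for GCC2 and 1.72 for TRIP11 (edgeR adjusted p = 0.077, 0.077, 0.090 and 0.093).

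The next comparison asked whether recovery in IP over input differed between the forms of RPL12. For S38A versus WT, 0 of 6 passed, as did 0% of all genes in either direction (edgeR, with 393 genes at an unadjusted p under 0.05). The estimates were negative for all 6, at -1.31 for GOLGA4 (95% interval -2.49 to -0.14), -1.28 for GOLGB1, -1.28 for TRIP11, -1.24 for GCC2, -0.68 for EEA1 and -0.55 for GOLGA2. Unadjusted p was under 0.05 for GOLGA4, GOLGB1, GCC2 and TRIP11 (0.031, 0.020, 0.038 and 0.035 in the edgeR fit), and the adjusted p was 1.00 for each. The median of the 6 was -1.26, beside 0.05 for all genes tested. Without the first WT IP library the estimates shrank to -0.38 for GOLGA4, -0.51 for GOLGB1, -0.16 for GCC2 and -0.26 for TRIP11. Without the second WT IP library these 4 passed (edgeR adjusted p = 0.018, 0.015, 0.0044 and 0.0092), as did 1.67% of all genes, 288 of them lower and 5 higher. The estimate therefore depended on which WT IP library was kept.

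For S38D versus WT, 0 of 6 passed, as did 0% of all genes (edgeR). An unadjusted p under 0.05 was found for 134 genes and 0 of the 6. Estimates ran from -1.03 for GCC2 to -0.67 for EEA1. The 95% interval was -2.03 to 0.33 for GOLGA4 and -1.58 to 0.23 for EEA1. Without the first WT IP library the GOLGA4, GOLGB1, GCC2 and TRIP11 estimates turned to 0.10, 0.10, 0.05 and 0.02. For S38D versus S38A, a contrast without WT libraries, 0 of 6 passed, as did 0% of all genes (edgeR, with 109 genes and 0 of the 6 at an unadjusted p under 0.05). GOLGB1 was at 0.60 (95% interval -0.44 to 1.64), GOLGA4 at 0.47 (95% interval -0.69 to 1.62), TRIP11 at 0.27, GCC2 at 0.20, EEA1 at 0.01 and GOLGA2 at -0.24. DESeq2 called 0 of 6 in each of these 3 contrasts. The 3 contrasts share libraries in pairs and are not independent.

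The inputs were compared to ask whether tether mRNAs associated with 80S ribosomes differed between lines before any IP. More of an mRNA per cell and more of it on 80S ribosomes cannot be told apart here. All 6 had higher CPM in both S38A inputs than in both WT inputs, a separation seen in 21.8% of all genes tested, but 0 of 6 passed, as did 0% of all genes (edgeR, with 2566 genes at an unadjusted p under 0.05). GOLGA4 averaged 55.3 ± 16.3 CPM in S38A input and 28.0 ± 6.3 CPM in WT input (SD, n = 2 each), a log2 difference of 1.01 (SE 0.23, unadjusted p = 0.0016, edgeR adjusted p = 0.17). GOLGA2 stood 0.89 higher (SE 0.25, edgeR adjusted p = 0.19), TRIP11 0.73, EEA1 0.57, GCC2 0.56 and GOLGB1 0.41. Unadjusted p was under 0.05 for 5 of the 6, GOLGB1 being the exception. The second S38A input was the highest input for each of the 6, and without the first S38A input GOLGA4 and GOLGA2 passed (edgeR adjusted p = 0.037 and 0.039), as did 2.86% of all genes. DESeq2 called GOLGA4 (adjusted p = 0.0074) and 3.63% of the genes with an adjusted p. With spike-in scaling all genes shifted by a median of -0.44, and GOLGA4 was at 0.79 (SE 1.08) and GOLGB1 at 0.09 (SE 1.12).

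Against WT inputs, 5 of 6 mRNAs were higher in both S38D inputs, where 16% of all genes separated this way, and GOLGB1 overlapped. By edgeR 0 of 6 passed, and 0.00598% of all genes did, with 555 genes at an unadjusted p under 0.05. GOLGA4 stood 0.64 higher in S38D input (SE 0.23, edgeR adjusted p = 1.00) and TRIP11 0.49 higher (SE 0.21, edgeR adjusted p = 1.00), and both had an unadjusted p under 0.05. With spike-in scaling the median of all genes was -0.83 and all 6 estimates were negative, from -0.70 for GOLGB1 (SE 1.13) to -0.05 for GOLGA4 (SE 1.08). These SEs exceed the estimates, and 0 of 6 passed. Spike-ins took 0.116% of counts in the first WT input and 0.484% in the second. Between S38D and S38A inputs 0 of 6 passed and 0.00598% of all genes did (edgeR). The differences ran from -0.43 for GOLGA2 to -0.16 for EEA1, and 0 of 6 had an unadjusted p under 0.05, against 630 of all genes.

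The 6 profiles over the 12 libraries were also compared with each other and with all genes. Likeness was the root mean square difference between log2 CPM values centred on each gene's own mean, so that a smaller value means a closer profile. GCC2 and TRIP11 were the closest pair at 0.098. Of 16919 other genes, TRIP11 had the closest profile to GCC2, and GCC2 ranked 2 among those closest to TRIP11. Without the first WT IP library the value was 0.089 and each ranked 2 for the other. GOLGB1 was 0.17 from GCC2, which ranked 17 for it. GOLGA4 stood farther off, at 0.35 from each of GOLGB1, GCC2 and TRIP11, and they ranked 20, 17 and 19 among the genes closest to it. In the other direction GOLGA4 ranked only 315, 284 and 298 for these 3, and 1813, 2223 and 1763 without the first WT IP library. EEA1 and GOLGA2 were 0.31 apart and 0.43 to 0.76 from the other 4. The genes outside the 6 closest to their mean profile were ENSG00000092853.9 (0.088, log2 change in IP 0.73, SE 0.21) and ENSG00000047410.9 (0.12, log2 change in IP 0.84, SE 0.17). Both were picked by likeness over the same 12 libraries, so their IP changes follow largely from that choice and are no separate test. They ranked 2 and 10 in closeness without the first WT IP library. All profiles share the same 12 libraries, so a library that stands apart enters each of them.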

How the data were processed

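Members, lists and tests were chosen with earlier results of these data known. The values are raw gene-level read counts, which the authors deposited as 1 table for each library (57820 Ensembl identifiers plus 92 ERCC spike-ins). The submitters' processing notes name bcl2fastq 2.16.0.10, STAR 2.4.2a, DESeq2 and build hg19. How reads were assigned to genes, with or without strand, was not stated. The RefSeq table at hand (GRCh38.p14) carried 0 Ensembl identifiers, so it served only to list genes that overlap the 6, whose names come with the rule that picked them. Gene lists fixed by symbol, marker genes and gene lengths could therefore not be used.

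Tests used edgeR 4.0.16 under R 4.3.3: a filterByExpr filter (minimum count 10), TMM, quasi-likelihood F tests, and Benjamini-Hochberg adjustment over every gene of a comparison, called at 0.05. One fit of the 12 libraries served all IP contrasts, and another of the 6 inputs served the inputs, with a biological coefficient of variation of 17.4% and 15.7%. ERCC counts were kept apart. An SE is the log2 change over the root of F. Log2 CPM values carry a prior count of 2. The 2 genes named beyond the 6 are those with the profile closest to the mean of the 6. IP and input of equal number in the labels were taken to come from 1 fraction. Their deviations correlated (WT 0.28, S38A 0.64, S38D 0.54), so the fraction was used as a block in an alternative. The WT value was close to the 0.22 between WT and S38D inputs, which share only a number. Replicates differed by more than sampling noise in every group (chi-square over its degrees of freedom at least 5.08). The code was tested on simulated counts. The alternatives run were DESeq2 1.42.0, RLE or total-count scaling, no filter, the block, fits of 1 line, spike-in scaling of the inputs and each library left out.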

Additional observations from a re-analysis of the deposited data

Results flagged for a closer look

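Among 28 sets of 6 values (CPM in IP and in input, log2 IP over input, and count ratios to EEA1), 13 held a value far from the other 5 by a gap test that chance passes in about 1 of 20 sets. The sets share libraries and are not independent. The first WT IP library was the distant one on the CPM scale among the 6 IP libraries for GCC2 (193 CPM), TRIP11 (99.6 CPM), GOLGB1 (76.4 CPM) and EEA1 (44.5 CPM). In log2 IP over input the first WT fraction was distant for GOLGA4 (3.10), GCC2 (2.53), TRIP11 (2.47), EEA1 (1.17) and GOLGA2 (0.99). It was also distant in the ratio to EEA1 for GCC2 (4.35) and TRIP11 (2.24). For GOLGA4 and GOLGB1 that ratio was highest there too, but not by a gap that was flagged. GOLGB1 was distant in the second S38A input (22.8 CPM among the inputs), and the GOLGA2 to EEA1 ratio in the second S38A IP library (1.50). Spike-in RNA, used for genes only in an alternative scaling, took at least 1.44% of counts in every IP library, against at most 0.484% in the inputs. The part of depth and spike-in share in the tether values was not tested.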

How the results depend on the processing

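Over the 3 lines the same 4 of 6 mRNAs passed with RLE, total counts, DESeq2, no filter and the replicate block. These settings called 16.8%, 7.67%, 18.1%, 7.59% and 22.5% of all genes higher, against 15.9% in the main fit. Over all 18 alternatives run GOLGA4 was at 1.14 to 1.75, GOLGB1 at 0.81 to 1.30, GCC2 at 0.62 to 1.24 and TRIP11 at 0.51 to 1.13. Total counts moved the median of all genes to -0.25, and the genes called higher to 1298 of 6549 calls over the 3 lines, 484 of 2928 in WT and 242 of 1622 in S38D, against 2690 of 5378, 976 of 1903 and 530 of 824 with TMM. The replicate block after removal of the first WT pair (called the reduced block here) was added once the data had been seen, and it treats the lone WT pair as varying like the others. The cause of the shifts below was not tested.

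Among the 6 mRNAs, the 4 calls in WT became 0 when the 4 WT libraries were fitted alone, with estimates as large as before. The number of calls in WT ranged from 0 to 5 on omission of a library. Under the reduced block, with its lone WT pair, GOLGA4 was at 1.06 in WT in place of 2.26, and TRIP11 at 0.46 in place of 1.68. S38A had 0 calls, but 1 unfiltered, where 0.701% of all genes were called higher. S38D had 0, where 3.13% of all genes were called higher. RLE size factors gave 1 (3.68% of all genes higher), DESeq2 2 (10.2%) and the unfiltered fit 3 (2.8%). The replicate block gave 2 (10.7%) and the 4 S38D libraries alone 3 (7.15%). On omission of a library GOLGA4 spanned 1.34 to 1.49 in S38D. The S38A to WT difference in IP over input had 2 calls unfiltered, where 0.116% of all genes were called lower. On omission of a library GOLGA4 spanned -1.92 to -0.38 in that difference. S38A against WT inputs had 1 call by DESeq2 and 3 unfiltered, where 2.5% and 1.92% of all genes were called higher. GOLGA4 spanned 0.67 to 1.28 there when a library was left out. With all libraries kept, the replicate block changed no other call of a member. The reduced block called GOLGA4, GOLGB1, GCC2 and TRIP11 in S38D, where 19.2% of all genes were called higher. Between S38D and S38A it called GOLGA4, where 2.1% were called higher. These contrasts hold no WT libraries, but the spread was estimated in a fit with the lone WT pair. Inputs of equal number in different lines share only that number (correlations of deviations -0.07 to 0.22), and blocking on it gave 0 calls among the 6.

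Signs turned as follows, none past the threshold. Total counts put GOLGA2 at -0.060 over the 3 lines and -0.058 in S38A, and EEA1 at -0.16 over the 3 lines and -0.13 between S38D and S38A, where the unfiltered fit had -0.015. Spike-in scaling of S38D against WT inputs gave GOLGB1 -0.70, GOLGA4 -0.051, GOLGA2 -0.34, GCC2 -0.43, TRIP11 -0.26 and EEA1 -0.34, with SEs of 1.08 to 1.13. The reduced block put EEA1 at -0.22 over the 3 lines, -0.31 in WT and 0.14 between S38A and WT, and between S38D and WT it gave GOLGB1 0.23, GOLGA4 0.36, GCC2 0.19, TRIP11 0.20 and EEA1 0.14. On omission of a library GOLGA2 spanned -0.053 to 0.28 over the 3 lines, -0.57 to 0.44 in S38A and -0.65 to 0.38 between S38D and S38A. EEA1 spanned -0.17 to 0.23 over the 3 lines, -0.13 to 1.01 in WT and -0.11 to 0.12 between S38D and S38A. Between S38D and WT, GOLGB1 spanned -1.23 to 0.10, GOLGA4 -1.45 to 0.10, GCC2 -1.68 to 0.050 and TRIP11 -1.66 to 0.016, and in their inputs GOLGB1 spanned -0.055 to 0.21.

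Calls over all genes moved too. The 5378 over the 3 lines became 9171 under the reduced block. The 1903 in WT became 2928 by total counts, 4818 by the replicate block, 5087 by the reduced block, 0 in WT libraries alone and 0 to 2869 on omission of a library. S38A had 0, but 7, 2079 and 6087 in the first 3 of these settings, 463 by DESeq2, 399 unfiltered and 0 to 139 on omission. S38D had 824, but 1622, 3379 and 6423 in those 3, 1698 by DESeq2, 1555 unfiltered, 1530 alone and 0 to 1809 on omission. The S38A to WT difference in IP over input had 0, but 39 unfiltered, 29 under the reduced block and 0 to 293 on omission, the S38D to WT difference 1 and 59 in the first 2 of these, and the S38D to S38A difference 405 under the reduced block. Inputs had 0 for S38A against WT, but 419 by DESeq2, 924 unfiltered and 0 to 495 on omission. The single call of S38D inputs against WT and against S38A became 10 and 2 by DESeq2, 87 and 49 unfiltered, 0 and 0 both by blocking on the number and by spike-ins, and 0 to 14 and 0 to 9 on omission. Counts of 68 to 951 reads for a tether mRNA in a library limit the precision.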
